A study of Homo sapiens with 2 samples.

Results

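The genes described are 9 components of the mitochondrial iron-sulfur cluster (ISC) assembly machinery, NFS1, LYRM4, ISCU, HSCB, HSPA9, GLRX5, ISCA1, ISCA2 and NFU1. They were taken by symbol from the 46427 genes listed in the deposited table, and each was found once. NK92, an established human natural killer (NK) cell line, was pre-incubated for 18 h and divided between dishes. One dish was then kept for 6 h with 10 µg/mL of PPMX-T003, an antibody that blocks transferrin receptor 1 (TfR1), the entry route of iron carried by transferrin, and the other was kept without it. Both dishes were grown in Artemis-Medium 1 with human serum, and poly(A) RNA of each was sequenced as 1 stranded library of 46766416 (unexposed) and 43178462 (exposed) counts. The columns of the table are named 0 h and 6 h although the methods give both dishes the same time in culture. The former was taken for the dish without antibody, and any difference in harvest time cannot be told apart from the exposure. With 1 library per condition no difference below has a replicate check and no p-value is given.

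Iron-sulfur clusters are cofactors of iron and sulfide that carry electrons or take part in catalysis, for example in the respiratory chain. In mitochondria, the cysteine desulfurase NFS1, held by LYRM4 (ISD11), releases sulfur from cysteine, and a [2Fe-2S] cluster is built from it and iron on the scaffold ISCU. The co-chaperone HSCB brings the loaded scaffold to the Hsp70 chaperone HSPA9 (mortalin), which helps to pass the cluster to GLRX5, a glutaredoxin. ISCA1 and ISCA2 serve the formation of [4Fe-4S] clusters, which NFU1 helps to deliver to client enzymes such as lipoyl synthase. Because the pathway consumes iron, the comparison asks how its transcripts stood after 6 h of TfR1 blockade.

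The transcripts of the assembly genes differed little between the libraries. Of the 9 genes, 8 were higher and 1 was lower in the exposed library, and 0 passed 2-fold, a threshold that 2.64% of the 13665 genes with at least 20 summed counts passed in either direction. Low counts carry most of that share, since among the 8359 genes with at least 1000 counts, to which all 9 members belong, 5 (0.0598%) passed it. The largest difference was that of ISCA2, 24.5% higher, and the most abundant member, HSPA9, was 3.22% lower. Differences are given as log2 fold changes of counts scaled to library size (CPM), exposed minus unexposed, with a 95% Clopper-Pearson interval for counting error alone, which compares the libraries and not the conditions. The interval lay above 0 for NFS1, ISCU, GLRX5, ISCA2 and NFU1 and below 0 for HSPA9, and it held 0 for LYRM4, HSCB and ISCA1. For comparison, 21.8% of all tested genes had an interval above 0 and 23.9% had one below. Among the genes with at least 1000 counts, these shares were 27.8% and 32.1%. The median log2 fold change of the members was 0.11, against -0.0098 for those 8359 genes, of which 47.7% were higher in the exposed library. In bulk RNA, fewer cells that express a gene and less of its RNA per cell cannot be told apart.

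The libraries carried the transcripts of NK cells. All 11 NK cell markers examined had enough counts to be tested, with summed levels of 4447 CPM in the unexposed and 4928 CPM in the exposed library, and the one with most reads was IL2RB, a chain of the interleukin-2 receptor, at 1202 and 1298 CPM. Per transcript length the cytotoxic granule gene NKG7 was the highest, at 3215 and 3445 TPM. Of these markers, 7 were higher and 4 lower in the exposed library. The T cell markers CD3D, CD3G, CD8A and CD8B had 0 counts in both libraries, CD4 had 4 and 0, and TRAC was at 32.1 and 30.4 CPM. CD3E, which NK cell lines can express, was the most abundant of the 7 T cell markers, at 408 and 439 CPM of a summed 439.8 and 469.4 CPM. The B cell marker MS4A1 had 0 counts in both libraries and CD79A had 14 and 12, or 0.299 and 0.278 CPM. Of the monocyte markers, with summed levels of 0.513 and 0.371 CPM, CSF1R had 22 and 9 counts, CD14 0 and 7, and LYZ 2 and 0. The erythroid markers HBB and HBA1 had 0 counts, which allow up to 0.0641 CPM in the unexposed and 0.0695 CPM in the exposed library. COL1A1 and EPCAM were also at 0, while PDGFRB, a receptor gene often used as a stromal marker, was at 194 and 186 CPM. The NK marker sum was thus higher in the exposed library, and its part in the results below was not tested.

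Levels of different genes were compared on the deposited TPM scale, which accounts for transcript length and which the authors rounded to whole numbers. HSPA9 was the most abundant member, at 494 TPM in the unexposed and 460 TPM in the exposed library, or 49.9% and 46.9% of the summed TPM of the 9 genes. GLRX5 (133 and 143 TPM) and ISCU (110 and 112 TPM) followed. NFU1 stood at 74 and 80 TPM, LYRM4 at 60 and 59 TPM, and ISCA1 at 47 TPM in both libraries. The lowest levels were those of HSCB (29 and 31 TPM), NFS1 (27 and 28 TPM) and ISCA2 (16 and 20 TPM). The order of the genes was the same in both libraries. Only HSCB and NFS1 were neighbours in this order with overlapping 95% Poisson counting intervals, of 26.8 to 31.3 and 25.7 to 28.3 TPM in the unexposed library and of 28.7 to 33.5 and 26.7 to 29.4 TPM in the exposed one. On this scale, which depends on the transcript length used, partners that work together thus had unequal levels. The chaperone HSPA9 exceeded its co-chaperone HSCB 17.0-fold in the unexposed and 14.8-fold in the exposed library. The scaffold ISCU exceeded the desulfurase NFS1 4.07-fold and 4-fold, and NFS1 stood at 0.45 and 0.475 of the level of its binding partner LYRM4. In CPM, NFS1 (36.2 unexposed, 39.0 exposed) and LYRM4 (37.7 and 39.3) were close, so their TPM ratio rests on transcript length. Transcripts of LYRM4 had a median length of 1401 bases and a longest of 7312, which the counting intervals do not cover. ISCA1 exceeded ISCA2 2.94-fold in the unexposed and 2.35-fold in the exposed library.

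**Figure D1:**
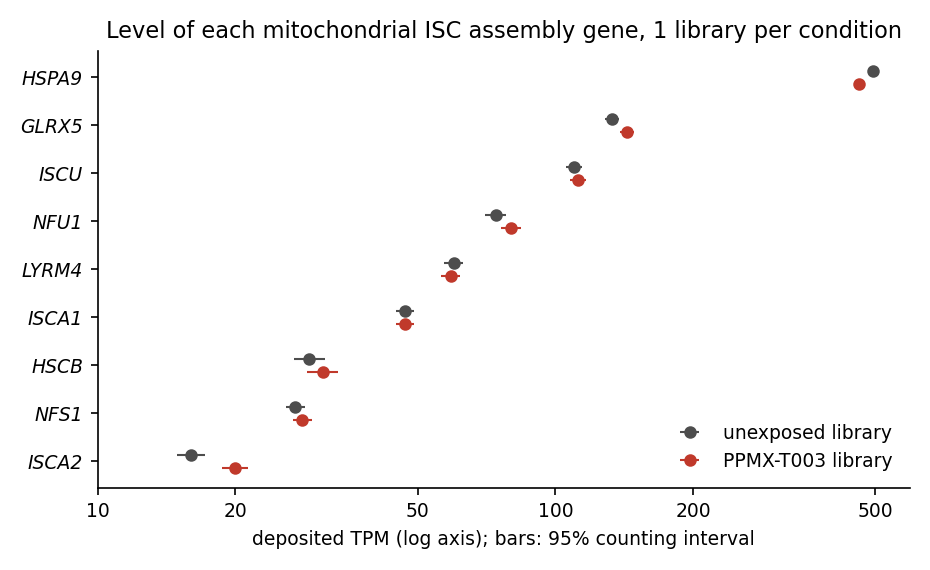
Level of each assembly gene in deposited TPM (log axis) in the unexposed library (grey) and the PPMX-T003 library (red), with bars for the 95% counting interval. HSPA9 stands highest at 494 and 460 TPM and ISCA2 lowest at 16 and 20 TPM.

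The desulfurase and its scaffold come first in the pathway. NFS1 and ISCU were slightly higher in the exposed library, except that their intervals held 0 after a fit on transcript length and GC content, and LYRM4 gave no detectable difference. NFS1 (NCBI Gene ID 9054, chr20:35668052-35699352 in GRCh38.p14) had 1695 counts without and 1683 with PPMX-T003, which in libraries of unequal depth are 36.2 and 39.0 CPM. Its log2 fold change was 0.11 (interval 0.0088 to 0.21), close to 0 at its lower bound, and the interval reached -0.00090 with median-of-ratios scaling. LYRM4 (57128, chr6:5031753-5260950), whose product stabilises NFS1, had 1766 and 1694 counts, with a log2 fold change of 0.057 (-0.040 to 0.15) that was not detectable at this depth. On the deposited TPM scale LYRM4 was at -0.024, but that scale lies lower than the counts by a median of -0.054 for genes with at least 20 TPM. A fit on the longest transcripts put LYRM4 at 0.12 (0.021 to 0.21). ISCU (23479, chr12:108561463-108569384) had 2488 and 2443 counts, or 53.2 and 56.6 CPM, and a log2 fold change of 0.091 (0.0098 to 0.17). The median of these 3 genes was 0.091.

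Among the chaperones and the transfer protein, HSPA9 was lower, except with the trend on length and GC content removed, and GLRX5 was higher. HSPA9 (3313, chr5:138553756-138575401) had 45333 counts without and 40448 with PPMX-T003, or 969 and 937 CPM. Its log2 fold change was -0.047 (-0.067 to -0.028), with the narrowest counting interval of the members because it had the most reads. It was also lower under each of the 3 other scalings, which move all genes by nearly the same small amount. Once that trend with transcript length and GC content was removed, HSPA9 was higher, at 0.038 (0.019 to 0.058). HSPA9 also serves protein import and folding, and with 76.6% of the members' counts in the unexposed library it set the sum of all 9, which was 1264 and 1260 CPM (log2 fold change -0.0056, interval -0.022 to 0.011). Without HSPA9 the other 8 genes summed to 295.7 and 322.1 CPM, a log2 fold change of 0.12 (0.089 to 0.16). HSPA9 was the only member that was lower, so a positive value follows from leaving it out. The length and GC trend was not removed from these sums. HSCB (150274, chr22:28742032-28757510) had 644 and 649 counts and a log2 fold change of 0.13 (-0.031 to 0.29), not detectable at this depth. GLRX5 (51218, chr14:95535050-95544714) had 3068 and 3152 counts and a log2 fold change of 0.16 (0.084 to 0.23), and it was at 0.058 (-0.014 to 0.13) after a fit on the longest transcripts.

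The genes of the late steps included the member that differed most. ISCA2 (122961, chr14:74493765-74497106) had 801 counts without and 920 with PPMX-T003, or 17.1 and 21.3 CPM. It thus had more reads in the smaller library, as did HSCB, GLRX5 and NFU1 by fewer reads. Its log2 fold change was 0.32 (0.18 to 0.46), 1.245-fold, which placed it 103rd from the top among the 8359 genes with at least 1000 counts. It lay beyond the central 95% of those genes, which ran from -0.33 to 0.27. NFU1 (27247, chr2:69395750-69439567) had 1464 and 1497 counts, or 31.3 and 34.7 CPM, and a log2 fold change of 0.15 (0.045 to 0.25). ISCA1 (81689, chr9:86264546-86282538), the partner of ISCA2, had 1915 and 1859 counts, and its difference of 0.074 (-0.018 to 0.17) was not detectable at this depth. Whether ISCA2 and ISCA1 differed from each other in their change was not tested.

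The promoters of the member with the narrowest counting interval and of the member that differed most are shown. These genes differed in opposite directions before the length and GC trend was removed. Each run is the 120 bases before the RefSeq transcription start in GRCh38.p14, 5′ to 3′ on the strand of the gene. That of ISCA2 lies at chr14:74493645-74493764 on the plus strand and that of HSPA9 at chr5:138575402-138575521 on the minus strand. Capitals mark GGGCGG, the GC box bound by SP1, or its reverse complement CCGCCC, and CACGTG, the E-box bound by MYC and USF.
ISCA2: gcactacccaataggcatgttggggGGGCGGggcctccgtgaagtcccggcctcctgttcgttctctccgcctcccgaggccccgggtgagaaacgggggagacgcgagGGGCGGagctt
HSPA9: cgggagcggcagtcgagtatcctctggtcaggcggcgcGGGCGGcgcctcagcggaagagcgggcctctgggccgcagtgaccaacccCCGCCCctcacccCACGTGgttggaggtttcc

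Motif letters were searched on both strands of the 250 bases before the start, for which all 9 members had an entry among 27303 genes of the RefSeq table. GGGCGG was in the window of 9 of 9 members, against 42.3% of all genes and 64.7% of the 10156 tested genes with an entry. CACGTG was in 1 member, HSPA9, 19 bases before its start, against 6.49% and 9.08%. CGCANGCG, the core of the NRF1 motif, was in 2 members, ISCU and NFU1, against 9.17% and 17.6%. CCGGAAG, a core shared by GABPA and other ETS factors, was in 1 member, NFS1, against 8.82% and 17.1%. AAGATGG, a YY1 core, was in 0 members, against 3.77% and 3.82%. The windows of the members held from 59.2% (GLRX5) to 72% (ISCA1) G and C, around the median of 64.4% for tested genes. These matches describe letters in the windows and were not tested against the values.

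**Figure D2:**
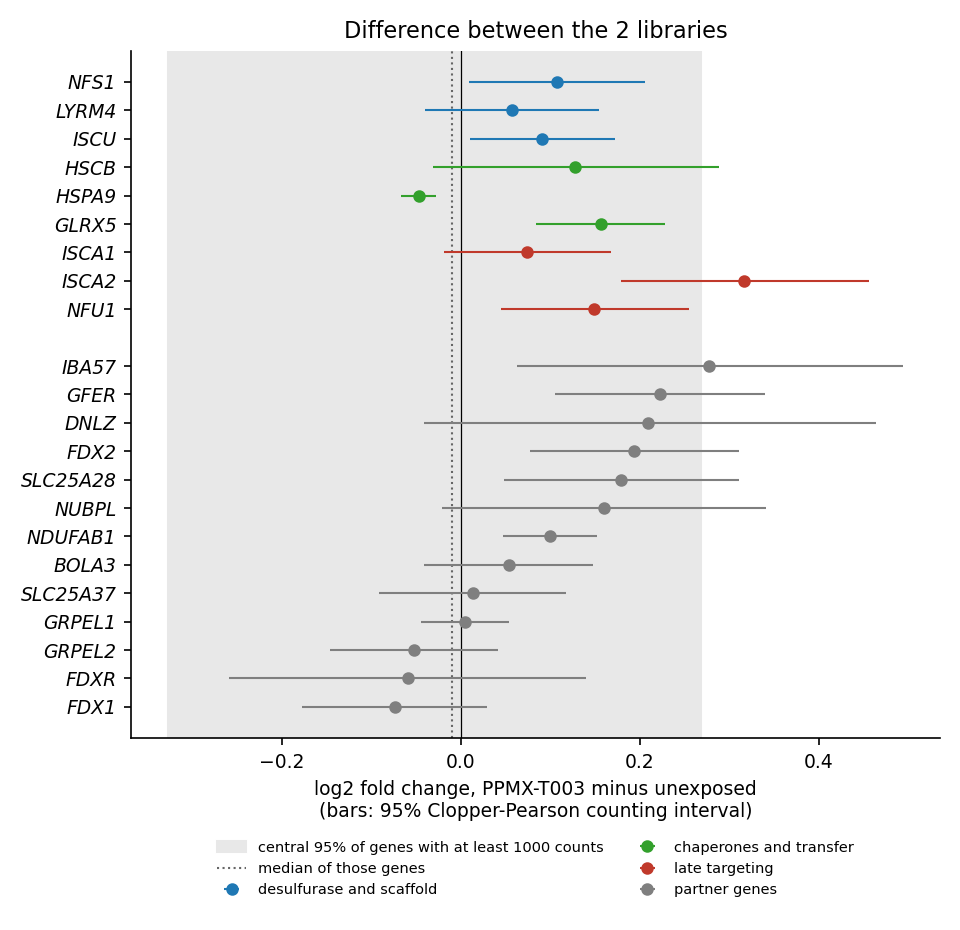
Log2 fold change (PPMX-T003 minus unexposed) of each assembly gene, coloured by role, and of tested partner genes (grey), with 95% Clopper-Pearson counting intervals. The grey band is the central 95% of genes with at least 1000 counts, from -0.33 to 0.27, and of the assembly genes ISCA2 (0.32) lies beyond it.

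Genes with GC-rich transcripts tended to be higher in the exposed library, and the members were read against that trend. When 8223 genes with at least 1000 counts were divided into 10 groups by GC content, the median log2 fold change was -0.13 in the poorest group (31.8% to 39.0% GC) and 0.11 in the richest (60.9% to 72.0% GC). Spearman's rho between fold change and GC content was 0.547, across genes, which are not independent replicates. The members' transcripts ranged from 40.8% (ISCA1) to 54.6% (GLRX5), and each of the 9 lay above the median of its own group. HSPA9 exceeded it by 0.0027 and ISCA2 by 0.32, with NFU1 (0.20) and ISCA1 (0.18) next, whose transcripts are poor in GC. With a robust fit of the fold changes on length and GC subtracted, the 9 members lay between 0.014 (LYRM4) and 0.27 (ISCA2), all above 0, with a median of 0.073. Of the 8223 genes, 46.3% were then above 0, with a median of -0.0090. The intervals of NFS1 and ISCU then held 0 and those of HSPA9 and ISCA1 lay above it, which left 5 members above 0 and 0 below, against 20.2% and 25.7% of the 8223 genes. When the longest transcripts were used instead, that of NFS1 lay above 0 again (0.020 to 0.22). ISCA2 and NFU1 had an interval above 0 under each of the 4 scalings and after both fits. The scalings move all genes by nearly the same amount, so only the fits could shift single genes. The part of the GC trend in the members' values beyond this fit was not tested.

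Copies of the members held few reads. The table lists 11 pseudogenes or antisense genes named after them, of which 7 had 0 counts in both libraries. The others were the antisense gene LYRM4-AS1 with 42 and 41 counts and the pseudogenes HSPA9P1 with 17 and 16, ISCA1P1 with 4 and 2, and ISCA1P6 with 2 and 2. Exons of ISCA2 overlap those of NPC2, a sterol transporter gene on the opposite strand, which had 828 counts without and 765 with PPMX-T003 and a log2 fold change of 0.0031 (-0.14 to 0.15). HSCB overlaps CHEK2 (0.0051, -0.16 to 0.17) in the same way, NFS1 overlaps ROMO1 (0.15, 0.074 to 0.24), and GLRX5 overlaps the noncoding SNHG10 (0.17, -0.043 to 0.38). The library kit keeps the strand, but the strand setting of the counting is not given in the sources used here, so the values of NFS1, HSCB, GLRX5 and ISCA2 are uncertain to that extent. NFS1 also shares exons on its own strand with an unnamed locus, which the kit cannot separate. SNORD63, a small RNA gene within HSPA9 on the same strand, had 7 counts in each library.

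Of 16 partner genes, whose products regulate the assembly complex, supply it with electrons or iron, or act beside the late components, 15 had enough counts, and BOLA1 had 0 in both libraries. Their median log2 fold change was 0.10, with 11 higher and 4 lower. The interval lay above 0 for 5 of the 15, against 21.8% of all tested genes and 27.8% of those with at least 1000 counts. IBA57, which acts with ISCA1 and ISCA2, was higher, with 339 and 379 counts (0.28, 0.063 to 0.49). GFER, a sulfhydryl oxidase of the intermembrane space, had 1137 and 1223 counts (0.22, 0.10 to 0.34). FDX2, the ferredoxin that feeds electrons to cluster synthesis, had 1169 and 1233 counts (0.19, 0.078 to 0.31), and it shares exons on its strand with unnamed loci. The mitochondrial iron importer SLC25A28 had 927 and 968 counts (0.18, 0.048 to 0.31). NDUFAB1, the acyl carrier protein that binds LYRM4, had 5836 and 5766 counts (0.10, 0.047 to 0.15).

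For 9 of the 15 the interval held 0, so that their differences were not detectable at this depth. FDX1 (-0.074) and the reductase FDXR (-0.059), which passes electrons to the ferredoxins, lay below 0, and the interval of FDXR did so as well after the fit (-0.41 to -0.0081). GRPEL1 (0.0044) and GRPEL2 (-0.052), nucleotide exchange factors of HSPA9, lay around 0, and DNLZ, a chaperone that keeps HSPA9 soluble, stood at 0.21 (-0.042 to 0.46) with exons shared with CARD9, and at -0.047 after the fit. BOLA3 (0.053), NUBPL (0.16), which serves respiratory complex I, and the iron importer SLC25A37 (0.013) had values near or above 0 as scaled, and BOLA3 was at -0.053 and GRPEL2 at 0.062 after the fit. After the same fit, the median of the partners was 0.030, with 9 higher and 6 lower, from -0.21 (FDXR) to 0.31 (IBA57). IBA57 kept an interval above 0 (0.098 to 0.53), and that of NUBPL (0.030 to 0.39) then lay above it. The intervals of GFER, FDX2, SLC25A28 and NDUFAB1 then held 0. IBA57 was listed at 2 TPM in both libraries, too low for a change on that rounded scale.

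Genes that depend on the pathway did not move one way. Of 14 mitochondrial genes whose products hold or need an iron-sulfur cluster, 8 were higher and 6 lower, with a median of 0.034. The interval lay above 0 for 6 and below 0 for 2, against 27.8% and 32.1% of genes with at least 1000 counts. The complex I subunits NDUFS8 (0.18, 0.12 to 0.25) and NDUFV1 (0.097, 0.053 to 0.14) were the highest by the bound nearest to 0, and after the fit they stood at -0.020 and -0.039. ETFDH, which passes electrons from fatty acid oxidation to ubiquinone, fell from 647 to 474 counts (-0.33, -0.51 to -0.16) and was at -0.29 after the fit. Its exons overlap those of C4orf46 and PPID on the opposite strand. NDUFS1, another complex I subunit, was at -0.058 (-0.097 to -0.019), and at 0.090 after a fit on the longest transcripts, which put the interval of NDUFV1 below 0 (-0.094 to -0.0071). NDUFS1 overlaps EEF1B2 on the opposite strand and shares exons on its own strand with GCSHP3. After the fit on each gene's median length and GC, 5 of the 14 genes were higher and 9 lower, with a median of -0.028, and of the genes named here only ETFDH then had an interval that did not hold 0.

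Of 12 cytosolic assembly genes, 10 were higher and 2 lower, with a median of 0.081. After the fit 6 were higher and 6 lower, from -0.14 (CIAO1) to 0.25 (BOLA2), with a median of -0.0019. Before it, the interval lay above 0 for 6 and below 0 for 0, against 27.8% and 32.1% of genes with at least 1000 counts. BOLA2 had the largest difference, from 1123 to 1412 counts (0.45, 0.33 to 0.56). It is nearly identical in sequence to BOLA2B (0.18, 0.080 to 0.27), so the counting could divide their reads, and their summed counts went from 2822 to 3183 (0.29, 0.22 to 0.36). BOLA2 also shares exons on its strand with SMG1P6 and BOLA2-SMG1P6. NUBP2, part of the cytosolic scaffold, stood at 0.21 (0.13 to 0.30) and at 0.015 after the fit. The interval after the fit lay above 0 for BOLA2 and held 0 for BOLA2B and NUBP2.

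Mitochondrial chaperones and proteases were listed as other partners of HSPA9 in protein quality control. Of 10 genes, 6 were higher and 4 lower, with a median of 0.056 that was 0.016 after the fit. The interval lay above 0 for 6 and below 0 for 3, against 27.8% and 32.1% of genes with at least 1000 counts. HSPD1, the mitochondrial Hsp60 and an abundant chaperone like HSPA9, was at -0.032 (-0.045 to -0.019), while its co-chaperone HSPE1 was at 0.11 (0.082 to 0.13). These neighbours overlap on opposite strands, and HSPE1 shares exons with HSPE1-MOB4. LONP1 overlaps RPL36 and YME1L1 overlaps MASTL on opposite strands as well. The proteases LONP1 (0.13, 0.085 to 0.18) and CLPP (0.15, 0.080 to 0.23) were higher, and YME1L1 (-0.11, -0.18 to -0.049) and the CLPP partner CLPX (-0.067, -0.13 to -0.0050) lower, the last with an interval that held 0 under upper-quartile scaling. After the fit HSPD1 stood at 0.0090, CLPP at -0.023 and CLPX at 0.036, and of these 6 genes only HSPE1 (0.025) kept an interval off 0. With the longest transcripts in the fit that interval held 0, and HSPD1 was below 0 again (-0.016, -0.029 to -0.0034). TFRC, which encodes the target of the antibody, was at 407 and 422 CPM (0.052, 0.023 to 0.082), at 184 TPM in both libraries and at 0.16 after the fit.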

How the data were processed

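According to the methods and the submitters' processing notes, the authors trimmed reads with Trimmomatic 0.38, mapped them to hg38 with HISAT2 2.2.0 and obtained counts per gene with StringTie 2.1.3b. The authors deposited these counts and TPM rounded to whole numbers, the latter treated here as a score, and 2 deposited FPKM columns were not used. Commas within numbers were removed. Counts were scaled by the trimmed mean of M-values (trimming 30% of the log ratios and 5% by mean level, with factors of 1.00 and 0.999) and turned into log2 CPM with a prior count of 2 in Python 3.11.15 (numpy 2.4.6, pandas 2.3.3, scipy 1.17.1, statsmodels 0.14.6, matplotlib 3.10.9). Of the reads of a gene, the share in the exposed library was given a 95% Clopper-Pearson interval, which was converted to a log2 ratio and does not cover how StringTie divides shared reads. Genes with at least 20 summed counts were tested, and no count model was fitted.

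Transcript length and GC content came from GENCODE release 29, matched to the RefSeq identifiers of the table where possible, and were known for 87.9% of tested genes and all 9 members. The robust fit used 9965 genes with at least 200 counts. Coordinates and promoters came from RefSeq GRCh38.p14, with 1 start per gene. Named genes were all members, all partner genes, up to 3 genes in each direction of each related list by the interval bound nearest to 0, and TFRC, and results of some of these genes and of some cell markers are not reported here. Genes overlapping a member were added by the annotation after the values were seen, and CIAO1 as the lowest of its list after the fit. The members and lists were chosen with earlier results of these data known. Scaling, fold changes, intervals and the fit were tested on simulated data. The simulated libraries differed by counting error and planted changes only, so they do not test the intervals against other variation between libraries. Alternatives were other scalings, prior counts, count filters, fold thresholds, the deposited TPM and the fit.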

Additional observations from a re-analysis of the deposited data

How the results depend on the processing

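No paired analysis was possible because there was only 1 library on each side, so no replicate could be left out either. With the 3 other scalings, all 39 named genes stayed within their counting intervals. Another scaling moves all genes by nearly the same small amount, so this outcome was fixed beforehand. It can change only calls with a bound close to 0. Prior counts and count filters do not enter these intervals and barely move well-counted genes, so they do not test the calls. Median-of-ratios scaling left 4 members with an interval above 0. At 1.5-fold 0 members passed, and at 1.2-fold 1 did, ISCA2, against 0.383% and 7.9% of genes with at least 1000 counts. The number of all genes past 2-fold was 361, against 2481 with at least 1 count, 21 with at least 200 and 5 with at least 1000, which follows from the genes tested. It was 247 with a prior count of 5 and 503 with TPM. Of the 12017 genes with known length and GC content, 224 passed as scaled and 225 after the fit.

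With the deposited TPM the list medians were 0.051 for the members, 0 for the partners, -0.025 for the mitochondrial clients, 0.053 for the cytosolic assembly genes and -0.0026 for the mitochondrial chaperones. LYRM4 (-0.024), GRPEL1 (-0.058), BOLA3 (-0.0086) and SLC25A37 (-0.074), whose intervals held 0, changed sign, as GRPEL1 did with median-of-ratios scaling (-0.0053). This scale lies lower than that of the counts by a median of -0.054.

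With the fit on length and GC removed, 0 members had an interval below 0. The medians were 0.030 for the partners, -0.028 for the clients, -0.0019 for the cytosolic assembly genes and 0.016 for the chaperones. HSPA9 (0.038), NDUFAB1 (-0.0018), NDUFS8 (-0.020), NDUFV1 (-0.039), BOLA2B (-0.026), CLPP (-0.023), HSPD1 (0.0090) and CLPX (0.036) changed sign, as did GRPEL2 (0.062), DNLZ (-0.047) and BOLA3 (-0.053), whose intervals held 0 as scaled.

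When the fit used the longest transcripts, a setting chosen after seeing the data, again 0 members had an interval below 0, that of GLRX5 held 0, and 6 members, LYRM4 and NFS1 included, had one above 0, against 26.4% of 8223 genes below and 19.2% above. The medians were 0.10 for the members, 0.014 for the partners, -0.017 for the clients, -0.0057 for the cytosolic assembly genes and 0.011 for the chaperones. HSPA9 (0.022), NDUFAB1 (-0.021), NDUFS8 (-0.033), NDUFV1 (-0.050), NDUFS1 (0.090), BOLA2B (-0.022), CLPP (-0.035) and CLPX (0.019) changed sign, as did GRPEL2 (0.043), DNLZ (-0.057) and BOLA3 (-0.073). The cause of these differences was not tested.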
